A study of Homo sapiens with 12 samples.

Results

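Genes reported outside this study as targets of the microRNA miR-197 were followed through 12 expression arrays of lung cancer cells in which miR-197 was either supplied or blocked. The members are 10 genes, TUSC2, PMAIP1, BMF, IL22RA1, IL6R, ACVR1, CD82, TSPAN3, IGFBP5 and MTHFD1. The rule, that the gene was named as a miR-197 target outside this study, uses no value from these arrays. The list was still drawn up with earlier results of these data known. Every probe on the array that carried one of these gene names was taken, which gave 13 probes. Of the 24856 genes that passed the filter on dim signals and were tested, 9 were members, and IGFBP5 was left without a usable signal. The question asked of each gene and each line was whether its RNA fell when miR-197 was supplied and rose when miR-197 was blocked.

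The lung adenocarcinoma lines were A549, PC14 and PC14CDDP, where the last is a cisplatin-resistant line (CDDP is cisplatin). The paper names PC14 as its parental line, so PC14 and PC14CDDP are related and are not independent backgrounds. Each line received 4 transfections at 25 nM with DharmaFECT 1: premiR-197, a precursor that supplies the miRNA, NC, the AllStar-NC control, LNA-miR-197, a locked nucleic acid strand that blocks it, and LNA-miR-NC, the control for the blocker. A single array, hybridised from 100 ng of total RNA, was made for each transfection of each line, so that the 3 lines serve as the replicates and no transfection was repeated within a line. The SDs and p-values below treat the 3 lines as independent, although PC14CDDP and PC14 are related. The labels do not give the time between transfection and harvest. The arrays held 0 probes for MIR197, so neither the supply nor the block of miR-197 could be checked on them.

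MicroRNAs are short RNAs that guide Argonaute proteins to messenger RNAs, most often through pairing of the seed, the bases just after the 5′ end, with a site in the 3′ untranslated region. A bound messenger RNA is translated less and is often degraded, and an expression array can see only the loss of RNA. A miRNA may therefore lower a target's protein without a change in these measurements.

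The mature strands of miR-197 are shown because the seed decides which sites can pair. The sequences were read from RefSeq on GRCh38.p14, both lie on the plus strand of chromosome 1, and capitals mark the seed, bases 2 to 8. The hairpin gives the 3p strand from chr1:109598940-109598961 and the 5p strand from chr1:109598901-109598923.
hsa-miR-197-3p: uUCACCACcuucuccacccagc
hsa-miR-197-5p: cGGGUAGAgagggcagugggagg

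A site for the 3p seed reads GTGGTGA on the sense strand, and GTGGTGAA when it is followed by the A that lies opposite the first base of the miRNA. The shortest matches searched were the 6-base forms TGGTGA for the 3p seed and CTACCC for the 5p seed, and other 6-base parts of the seeds were not searched. Among the 13 member probes, which are 60 bases long and carry the sense sequence of their transcripts, 1 held either form. This was the IL22RA1 probe, and its match was the full 8 bases. The probe is shown with equal flanks around the match, which is in capitals.
IL22RA1 probe window: tcatggagattGTGGTGAAgatgaaatgaa
The files place the probe at chr1:24446235-24446278 on hg19, on the minus strand, a span of 44 bases for 60 bases of probe, and at base 2860 of NM_021258. Whether that stretch is coding or untranslated was not determined here, and the rest of each transcript was not searched. No statement about sites elsewhere in the member genes follows from the probes.

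All 12 arrays had 55.8% to 63.0% of their probes well above background, and 0 spots were saturated. Levels are given as the log2 of a probe's signal over the 75th percentile of its array, so that a level of 0 is a bright probe. The epithelial keratins KRT7, KRT8, KRT18 and KRT19 were well above background on every array. The adhesion markers EPCAM and CDH1 were so on all 4 arrays of A549, on 3 and 2 arrays of PC14, and on 0 arrays of PC14CDDP. Of 4 markers of the lung adenocarcinoma lineage, NAPSA and SFTPC were so on every array, NKX2-1 on all 4 arrays of PC14 and of PC14CDDP and 0 of A549, and SFTPB on 1 array of A549 and 0 of the other lines. Of 3 leukocyte markers 2 were well above background on every array of each line (PTPRC and CD14), as was 1 of 3 fibroblast markers (COL1A1), while COL1A2 and DCN were so on 0 arrays. Their part in the results was not tested. A549 lay on a slide of its own and PC14 and PC14CDDP shared the other, and each transfection held the same row of the slide in every line, so that row and transfection cannot be told apart.

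IL22RA1, the signaling subunit of the interleukin-22 receptor, was the member with the largest decrease after premiR-197, and it fell in all 3 lines. Its level after premiR-197 was -2.12, -2.97 and -2.27 in A549, PC14 and PC14CDDP. With NC it was -0.41, -1.24 and 0.09 in the same order. The 3 premiR-197 arrays were the 3 lowest of the 12 for this probe, and the groups did not overlap. The share of all genes separated in this way is not given. In A549 the signal was 3.26-fold lower, in PC14 3.32-fold lower and in PC14CDDP 5.11-fold lower than with NC. The mean change was a log2 ratio of -1.93 ± 0.37 (SD, n = 3 lines), with a limma adjusted p of 0.0090 over all genes tested, and the scanner's own error on each of these ratios was at most 0.21. This placed IL22RA1 at rank 13 from the lowest among 24856 genes. The call needed all 3 lines, since the mean was -2.04 without A549, -2.03 without PC14 and -1.72 without PC14CDDP, with limma adjusted p of 0.14, 0.71 and 0.45, and 0 genes were called with any line left out.

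IL22RA1 did not rise after LNA-miR-197, the blocker, whose effect on miR-197 was not measured on these arrays. Its level was -0.67, -1.86 and -0.72 in A549, PC14 and PC14CDDP after LNA-miR-197, against -0.60, -1.39 and -0.26 after LNA-miR-NC. All 3 values with the blocker were below their control, with a mean log2 ratio of -0.33 ± 0.23 (SD, n = 3 lines) and a limma adjusted p of 0.19. Measured against NC in place of LNA-miR-NC, the decrease after LNA-miR-197 was -0.56 with a limma adjusted p of 0.042. The difference between the premiR-197 change and the LNA-miR-197 change was -1.60 with a standard error of 0.21 and missed the threshold (limma adjusted p = 0.051). Quantile normalization gave the same difference as -1.61 with a limma adjusted p of 0.044. It also passed under normexp background correction, the eBayes trend and robust prior, and the filter on all 12 arrays. The difference did not pass with the mean of a gene's probes, without the filter or with the slide as the block (limma adjusted p = 0.057, 0.11 and 0.69). It also failed without pairing by line, and without A549, PC14 or PC14CDDP (limma adjusted p = 0.18, 0.43 and 0.41).

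TUSC2, also called FUS1, is a tumor suppressor of the 3p21.3 region that is often lost in lung cancer. Its level after premiR-197 was 2.89, 2.60 and 3.04 in A549, PC14 and PC14CDDP, against 3.36, 3.03 and 3.81 with NC. Each line was lower than its own control, although the lowest NC array and the highest premiR-197 array overlapped. The mean log2 ratio was -0.55 ± 0.19 (SD, n = 3 lines) and did not pass the test (limma adjusted p = 0.081). It passed when only probes well above background on all 12 arrays were tested (limma adjusted p = 0.033).

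After LNA-miR-197 the level of TUSC2 was 3.01, 2.96 and 3.44 in A549, PC14 and PC14CDDP, against 2.95, 2.82 and 3.25 after LNA-miR-NC. The blocked arrays were higher in each line, but by less than 1.2-fold, with a mean log2 ratio of 0.13 ± 0.07 (SD, n = 3 lines, limma adjusted p = 0.46). LNA-miR-NC lay below NC in each line, with a mean log2 ratio of -0.40 that did not pass (limma adjusted p = 0.14). With LNA-miR-NC as the control the change after premiR-197 was -0.16 (limma adjusted p = 0.40), and with NC as the control the change after LNA-miR-197 turned to -0.26 (limma adjusted p = 0.12). The difference between the changes after premiR-197 and LNA-miR-197 was -0.69 with a standard error of 0.15 (limma adjusted p = 0.095).

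PMAIP1, which encodes the BH3-only protein NOXA that binds MCL1 and favors apoptosis, was the 1 member that passed the test after LNA-miR-197. Its level rose to 1.60, 1.04 and 1.24 in A549, PC14 and PC14CDDP, against 0.71, 0.63 and 0.29 after LNA-miR-NC. The 3 LNA-miR-197 arrays did not overlap the 3 LNA-miR-NC arrays. They were also the highest 3 of the 12, but by a small margin. The LNA-miR-197 array of PC14 was at 1.04 and the NC array of PC14CDDP at 1.03, with a scanner error of 0.14 on each. The share of all genes with such a separation is not given. The rise was 1.85-fold, 1.33-fold and 1.93-fold in A549, PC14 and PC14CDDP, a mean log2 ratio of 0.75 ± 0.29 (SD, n = 3 lines) with a limma adjusted p of 0.031. Against NC the log2 ratio was 0.38 and did not pass (limma adjusted p = 0.12). LNA-miR-NC was itself lower than NC for PMAIP1 in all 3 lines, with a mean log2 ratio of -0.36 (limma adjusted p = 0.35). Without A549, PC14 or PC14CDDP the mean after LNA-miR-197 was 0.68, 0.92 or 0.65 and was not called (limma adjusted p = 0.10, 0.18 and 0.24).

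No decrease of PMAIP1 was seen after premiR-197. The level was 0.99, 0.96 and 0.86 in A549, PC14 and PC14CDDP, against 0.83, 0.87 and 1.03 with NC. It was above the control in A549 and PC14 and below it in PC14CDDP, with a mean log2 ratio of 0.03 ± 0.17 (SD, n = 3 lines, limma adjusted p = 0.95).

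BMF, another BH3-only activator of apoptosis, was the only member that went down by 1.2-fold or more with premiR-197 and up by as much with LNA-miR-197 in each of the 3 lines. This pattern was found in 45 of the 24856 genes tested (0.181%), and neither BMF change passed the test. Both of its probes were dim. The brighter one was well above background on 10 of 12 arrays and failed in PC14 with premiR-197 and with NC. Its level after premiR-197 was -4.96, -6.83 and -4.56 in A549, PC14 and PC14CDDP, against -3.56, -6.32 and -3.66 with NC, so that the PC14 pair has no usable ratio. With that pair kept, as the fit and the count above keep it, the mean log2 ratio was -0.94 ± 0.45 (SD, n = 3 lines, limma adjusted p = 0.19). It was -0.34 with the mean of both probes and -0.38 under normexp background correction.

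After LNA-miR-197 the brighter BMF probe reached -2.19, -5.19 and -2.94 in A549, PC14 and PC14CDDP, against -3.24, -5.82 and -4.44 after LNA-miR-NC. All 6 of these arrays were well above background, and each line was higher with the blocker. The mean log2 ratio was 1.06 ± 0.44 (SD, n = 3 lines) and missed the threshold (limma adjusted p = 0.070). It was 1.07 with NC as the control, where it passed (limma adjusted p = 0.0498), and 0.47 under normexp (limma adjusted p = 0.095). The difference between the changes after premiR-197 and after LNA-miR-197 was -2.00 with a standard error of 0.42 (limma adjusted p = 0.095), and -0.84 under normexp.

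The dimmer BMF probe, which starts at base 734 of the transcript against base 4268 for the brighter one, gave other values. In A549 and PC14 it was brighter with premiR-197 than with NC, where it was not well above background, by at least 1.46-fold and by 1.67-fold. In PC14CDDP it was 1.78-fold dimmer with premiR-197, where it was not well above background. With LNA-miR-197 it was brighter in all 3 lines, with a log2 ratio of 0.84 in A549. It was at least 1.41-fold brighter in PC14 and 2.42-fold brighter in PC14CDDP, against arrays that were not well above background. The 1.67-fold, 1.78-fold and 2.42-fold values are plain ratios and not bounds, with scanner errors of 0.41, 0.47 and 0.47 on the log2 scale.

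IL6R, the ligand-binding chain of the interleukin-6 receptor, was lower after both premiR-197 and LNA-miR-197. In A549, where all 4 arrays were well above background, the level of its brighter probe was -3.92 after premiR-197 against -3.16 with NC, and -3.80 after LNA-miR-197 against -3.45 after LNA-miR-NC. In PC14 the probe was at least 1.90-fold dimmer with premiR-197, where it was not well above background, than with NC. The blocked PC14 array was also below its control, at -6.07 against -4.99. In PC14CDDP both IL6R probes were well above background on 0 of the 4 arrays, so the line has no usable ratio. The fit over 3 lines, which keeps these dim arrays, gave -1.06 for premiR-197 (limma adjusted p = 0.082) and -0.62 for the blocker (limma adjusted p = 0.095). Under normexp background correction these were -0.33 and -0.18, and without PC14 the value for the blocker was -0.38. The other IL6R probe gave log2 ratios in A549 of -0.49 after premiR-197 and 0.21 after LNA-miR-197. The probes thus differed in sign for the blocker in A549, although 0.21 lay within its scanner error of 0.22. In PC14 the blocker ratio of this other probe was -0.16, with a scanner error of 0.30, against -1.08 for the brighter probe.

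ACVR1 encodes a type I receptor for bone morphogenetic proteins and activins. Both of its probes were well above background on all 12 arrays. Its brighter probe was higher with premiR-197 in all 3 lines, at 0.73 against 0.33 in A549, 0.77 against 0.52 in PC14 and 1.33 against 0.87 in PC14CDDP. The mean log2 ratio was 0.37 ± 0.10 (SD, n = 3 lines, limma adjusted p = 0.22), and the other probe gave 0.25 ± 0.05. After LNA-miR-197 the ratios of the brighter probe were 0.02, 0.23 and 0.34 (limma adjusted p = 0.36).

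CD82, a tetraspanin of the cell surface that is known as a suppressor of metastasis, was lower with premiR-197 than with NC in each line. Its level was -2.24 against -1.89 in A549, -1.74 against -1.31 in PC14 and -0.38 against 0.29 in PC14CDDP. The mean log2 ratio of -0.49 ± 0.17 (SD, n = 3 lines) did not pass (limma adjusted p = 0.40). After LNA-miR-197 the log2 ratios were 0.17, -0.43 and -1.13 in A549, PC14 and PC14CDDP (limma adjusted p = 0.30). Their mean was -0.46, and it was -0.78 without A549 and -0.13 without PC14CDDP. In both PC14 lines the level was thus below its control after supply and after block. That difference between the lines was not tested, as each line has 1 array per transfection.

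TSPAN3, another tetraspanin, and MTHFD1, a trifunctional enzyme of the folate cycle, had bright probes and small changes. With premiR-197 TSPAN3 differed from NC by 0.11 (A549), -0.02 (PC14) and -0.41 (PC14CDDP) on the log2 scale, with a limma adjusted p of 0.72. After LNA-miR-197 its ratios lay between -0.16 and -0.01. For MTHFD1 the signs were opposite to those of a repressed target in each line. Its log2 ratios were 0.08, 0.06 and 0.17 after premiR-197 and -0.13, -0.25 and -0.43 after LNA-miR-197, in A549, PC14 and PC14CDDP. The limma adjusted p was 0.65 and 0.12 for these 2 comparisons. Against NC, the log2 ratio of MTHFD1 after LNA-miR-197 was -0.37, which passed (limma adjusted p = 0.038).

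IGFBP5, which binds insulin-like growth factors, was well above background on 0 of 12 arrays. Its measured levels lay between -8.81 and -7.92, and no change is given for it.

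Counted over the members, 1 of the 9 tested was called lower after premiR-197 and 0 were called higher, where limma called 33 genes lower (0.133%) and 21 higher (0.0845%) of all genes tested. At an unadjusted limma p under 0.05 in either direction there were 5 members, with a background of 16.5%. TUSC2, BMF, IL22RA1 and IL6R were lower and ACVR1 was higher. After LNA-miR-197 there was 1 member called higher and 0 lower, with 3.75% and 3.90% of all genes called in these directions. At an unadjusted limma p under 0.05 in either direction there were 4 members, with a background of 27.2%. PMAIP1 and BMF were higher, and IL6R and MTHFD1 were lower. With NC as the control for LNA-miR-197, 4 members were called, BMF higher and IL22RA1, IL6R and MTHFD1 lower, where 14.8% of all genes were called. With LNA-miR-NC as the control for premiR-197, IL22RA1 was again the 1 member called, where 2.97% of all genes were called. The difference between the 2 changes called 0 members and 27 genes (0.109%). In either direction, 5 members had an unadjusted limma p under 0.05 for it, with a background of 18.2%. TUSC2, PMAIP1, BMF and IL22RA1 were negative there, and MTHFD1 was positive, the sign opposite to repression. With an eBayes trend and robust prior the difference called 3 members and 637 genes. The control comparison, LNA-miR-NC against NC, called 0 members and 0.652% of all genes, and 2 members, TUSC2 and PMAIP1, had an unadjusted p under 0.05 there, where 13.7% of genes did.

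By size alone, 5 of the 9 members tested were lower by at least 1.2-fold in all 3 lines after premiR-197, namely TUSC2, BMF, IL22RA1, IL6R and CD82, and 0 were higher. Among all genes tested 4.72% were lower and 4.08% were higher by that much in all lines. Of these 5, TUSC2, IL22RA1 and CD82 were well above background on all 12 arrays, while the counts of BMF in PC14 and of IL6R in PC14CDDP rest on pairs of arrays that were not. At 1.5-fold the count was 2, IL22RA1 and IL6R, with a background of 0.917%, and at 2-fold it was 1, IL22RA1, with a background of 0.101%. After LNA-miR-197, 2 members, PMAIP1 and BMF, were higher by at least 1.2-fold in all lines (background 6.84%) and 1, IL6R, was lower (background 8.13%). Both directions of repression at any size were met in all 3 lines by TUSC2 and BMF, with a background of 3.14%.

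The median of the 9 members was a log2 ratio of -0.49 after premiR-197, where all genes tested had a median of 0.03, and -0.07 after LNA-miR-197, where the median of all genes was -0.02. Of the 9, 6 were below 0 after premiR-197 and 4 were above 0 after LNA-miR-197. In single lines the number that were lower with premiR-197 and higher with LNA-miR-197 was 3 in A549 (TUSC2, BMF and CD82), 2 in PC14 (TUSC2 and BMF) and 3 in PC14CDDP (TUSC2, PMAIP1 and BMF). The share of all genes with that pattern was 18.9%, 18.5% and 20.3% in the same lines.

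The match in the IL22RA1 probe led to a search of the probes of all genes tested, which was chosen after the values of IL22RA1 were known and is given as a description. The 8 bases GTGGTGAA were held by 50 of the 24856 probes (0.201%). Of these 50 genes, 9 (18.0%) were lower by at least 1.2-fold in all 3 lines after premiR-197 and 0 were higher, where 4.72% and 4.08% of all genes were. These 9 include IL22RA1, whose match prompted the search. A mean below 0 was found for 34 of the 50, where 45.02% of all genes had one, and their median log2 ratio was -0.14. IL22RA1 and NLK, a serine-threonine kinase, were called lower by limma, and IL22RA1 had the lowest mean of the 50. NLK had log2 ratios of -0.81, -0.90 and -1.11 in A549, PC14 and PC14CDDP.

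The same letters on the other strand, TTCACCAC, were in 25 probes, of which 0 were lower and 1 was higher in all 3 lines, with a median of 0.06. The 7 bases GTGGTGA, the match to the seed alone, which the 50 probes above also hold, were in 141 probes (0.567%). Of these genes 18 (12.8%) were lower in all lines and 3 were higher. Their other-strand form TCACCAC was in 109 probes, of which 3 (2.75%) were lower and 5 were higher. The 6 bases TGGTGA, which lie within both longer matches, were in 560 probes (2.25%), of which 37 (6.61%) were lower and 20 were higher. For the 5p strand, TCTACCCA was in 23 probes (0.0925%), and 0 of these genes were lower in all lines. After LNA-miR-197 the 50 genes with the 8-base match had a median log2 ratio of -0.04.

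**Figure D1:**
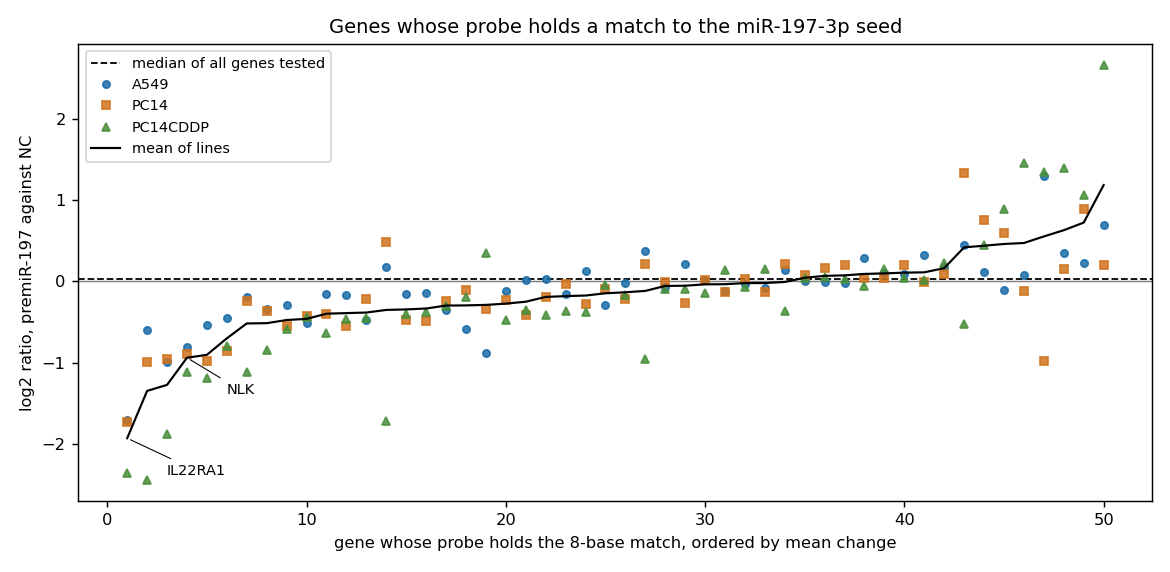
Log2 ratio of premiR-197 against NC (vertical axis) for the 50 genes whose probe holds the 8-base match to the miR-197-3p seed, ordered by the mean of the 3 lines (horizontal axis, rank), with a symbol per line, a solid line at the mean and a dashed line at the median of all genes tested, 0.03. IL22RA1 has the lowest mean and NLK the rank 4, and 34 of the 50 means lie below 0.

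The genes whose pattern was most like that of IL22RA1, by Pearson's correlation of log2 signals centred within each line over the 12 arrays, were TKFC (r = 0.989), XLOC_012444 (r = 0.980) and CLNS1A (r = 0.980). These arrays share their controls, and the correlations are a description. TKFC, a triose kinase, had log2 ratios after premiR-197 of -1.42, -1.73 and -2.04 in A549, PC14 and PC14CDDP. For PMAIP1 the nearest genes were NAB1 (r = 0.955), UFM1 (r = 0.943) and MGAT4A (r = 0.943). NAB1, a corepressor of early growth response factors, had log2 ratios of 0.81, 0.61 and 1.02 after LNA-miR-197 in A549, PC14 and PC14CDDP.

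The partners of the members in their pathways were read from lists of neighbors. Of 85 neighbors in 7 lists, 82 were tested, and after premiR-197 limma called 0 of them in either direction. After LNA-miR-197 it called 2 higher and 2 lower, where it called 3.75% and 3.90% of all genes in these directions. The receptor partners of IL22RA1 and IL6R, a list with the shared subunits IL10RB and IL6ST, the kinases JAK1 and TYK2 and the factor STAT3, had 11 members tested, 0 called after either agent, and medians of 0.05 after premiR-197 and -0.14 after LNA-miR-197. Among them IL20RB, a subunit of the interleukin-20 and interleukin-24 receptors, differed between the controls, with a log2 ratio of 1.96 for LNA-miR-NC against NC (limma adjusted p = 0.020).

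The BCL2 family beside PMAIP1 and BMF, which includes the other BH3-only genes BCL2L11, BBC3, BID and BAD and the survival genes MCL1 and BCL2L1, had 12 members tested and 0 called after either agent. Their medians were 0.03 after premiR-197 and -0.03 after LNA-miR-197. Of the 8 neighbors of TUSC2 at 3p21.3, RASSF1, a tumor suppressor that signals to the Hippo kinases, was called after LNA-miR-197, with log2 ratios of 1.12, 2.17 and 1.74 in A549, PC14 and PC14CDDP (limma adjusted p = 0.034). RASSF1 was also higher after premiR-197 in all 3 lines, by a mean log2 ratio of 1.35 (limma adjusted p = 0.14).

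Among 16 receptors and targets of the BMP and activin pathway beside ACVR1, the type II receptor ACVR2A rose after LNA-miR-197, by a mean log2 ratio of 0.78 (limma adjusted p = 0.045), and the type I receptor TGFBR1 fell by 0.67 on the same scale (limma adjusted p = 0.038). MTHFD1L, the mitochondrial relative of MTHFD1, was the 1 of 13 folate genes called, and it fell by 0.65 on the log2 scale after LNA-miR-197 (limma adjusted p = 0.028). The 11 tetraspanins tested beside CD82 and TSPAN3 and the 11 genes of the insulin-like growth factor axis beside IGFBP5 had 0 calls after either agent.

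The targets that the study itself followed up, CTNND1, ERLIN2, CKS1B and CEP55, are set beside the members for size. The paper chose its candidates in part by their change on these same arrays, so they are not an independent scale. After premiR-197 their mean log2 ratios were -0.90, -1.34, -0.27 and -0.26, of which that of ERLIN2 passed (limma adjusted p = 0.023), so that the change of IL22RA1 was larger than that of each of the 4 and that of TUSC2 lay between CTNND1 and CKS1B. These differences between genes were not tested. After LNA-miR-197 the same genes had mean log2 ratios of -0.89, -0.11, 0.09 and 0.17, of which that of CTNND1, a decrease, passed (limma adjusted p = 0.022). By qRT-PCR the paper reports that CKS1B fell after pre-miR-197 and rose significantly after LNA-miR-197.

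The members also differed between the lines, with 4 arrays of each line, 1 per transfection, as cultures of a single line. Repeat spots of 1 probe differed within an array by a median log2 SD between 0.058 and 0.065. Between PC14CDDP and PC14, which shared a slide, limma called 5 members higher in PC14CDDP and 2 lower, with 24.7% and 23.6% of all genes called in these directions. CD82 was 2.46-fold higher in PC14CDDP, with levels of -1.06 to 0.29 there and -1.83 to -1.31 in PC14, so that the lines did not overlap (limma adjusted p = 0.0018). IL22RA1 was 2.10-fold higher (limma adjusted p = 0.00024) although the ranges overlapped, since they hold the premiR-197 arrays. BMF was 4.41-fold higher, a value that includes 2 dim PC14 arrays. TUSC2 was 1.44-fold and ACVR1 1.30-fold higher.

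IL6R was lower in PC14CDDP, where 0 arrays were well above background. It was at least 1.17-fold brighter in PC14 and at least 4.86-fold brighter in A549, bounds that were not tested. The limma call between PC14CDDP and PC14 was for a log2 difference of -1.60 (limma adjusted p = 0.00014), which rests on those dim signals. MTHFD1 was 1.25-fold lower in PC14CDDP than in PC14 (limma adjusted p = 0.012). For PMAIP1 and TSPAN3 the lines PC14CDDP and PC14 did not differ beyond their spread, with log2 differences of -0.02 (standard error 0.13) and 0.11 (standard error 0.11).

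Between A549 and PC14, which lay on different slides, 4 members were called higher in A549 and 2 lower, with 35.9% and 32.3% of all genes called in these directions. TSPAN3 was 3.18-fold higher in A549, at 4.86 to 5.09 against 3.18 to 3.34, with no overlap (limma adjusted p = 3.0e-06). BMF was 5.86-fold and IL6R 4.15-fold higher, values that include 2 and 1 PC14 arrays that were not well above background. IL22RA1 was 1.88-fold higher, while ACVR1 was 1.26-fold and MTHFD1 1.19-fold lower. TUSC2, PMAIP1 and CD82 did not pass, with log2 differences of 0.20, 0.16 and -0.33. Slide and line cannot be told apart in this comparison.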

How the data were processed

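RNA from 12 transfected cultures was labeled with Cy3 and hybridised to Agilent SurePrint G3 v2 arrays. The authors read the scans with Agilent Feature Extraction (version 10.7.3.1 per the labels) and deposited for each spot the intensity as a mean of pixels, the local background, a background-subtracted processed signal and flags. Their deposited value table of intensity equals the processed signal on every spot. No scaling between arrays is given in the sources used here. Probe coordinates are on hg19.

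Control and outlier spots were left out, repeat spots averaged, and processed signals put on the log2 scale relative to the array's 75th percentile, which lay between 613.5 and 714.6. Of 50599 probes, 106 had a missing value. Probes well above background on at least 3 of 12 arrays were kept, and the brightest probe stood for its gene, which left 24856 genes. Names came from RefSeq (GRCh38.p14) by accession, which matched 28174 probes (55.7%). Where 1 side of a ratio was not well above background, a bound was computed from the higher of its signal and the lowest signal well above background on that array. Where its own signal was the higher, the value is a plain ratio and not a bound.

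A model with terms for transfection and cell line was fitted to the 12 arrays in limma 3.58.1 (R 4.3.3), then eBayes and Benjamini-Hochberg adjustment over all genes, called at 0.05. limma was tested on simulated arrays. Python 3.11.15, pandas 2.3.3 and matplotlib 3.10.9 made the tables and figures. Treated and control arrays are paired through their line. Deviations of same-line arrays correlated across genes at r of 0.929 to 0.949 in A549, 0.882 to 0.905 in PC14 and 0.848 to 0.898 in PC14CDDP. The limma p-values rest on the spread of all 12 arrays left after the terms for transfection and line, so arrays outside a comparison enter its p-value. Those for differences between lines rest on the same spread, with 4 cultures of each single line. The number of arrays limits the precision.

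Members, neighbor lists and tests were chosen with earlier results of these data known. Every member is named, and of the neighbors those limma called after either agent. IL20RB and NLK were named after their values were seen, and IL20RA, CD37 and CD53 were not tested because their probes were too dim. Alternatives covered normalization, background, filter, probe choice, control, arrays, block, prior and test.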

Additional observations from a re-analysis of the deposited data

How the results depend on the processing

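The deposited value table gave every value unchanged. The fall of IL22RA1 after premiR-197 was between -2.04 and -1.55 on the log2 scale in every alternative and passed under quantile normalization, normexp, other filters, other probe rules, the eBayes trend and robust prior, and LNA-miR-NC as the control. It did not pass without the pairing by line (no replicate block, -1.93, adjusted p = 1.00), with the slide as the block, with the arrays of the comparison alone, with the methods' t-test after adjustment (0.0144 before it), or without any 1 line (-2.04 to -1.72, limma adjusted p from 0.14 to 0.71). With 2 lines left, 0 genes were called after premiR-197. The rise of PMAIP1 after LNA-miR-197 was 0.38 to 0.92 and was also lost without the filter (limma adjusted p = 0.064), with NC as the control, and in the same 4 fits and without any 1 line. Some of these fits hold fewer arrays or lines, and otherwise the cause was not tested.

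Members lower in all 3 lines after premiR-197 (5) were 3 under normexp, 3 with the filter on all 12 arrays, 3 with LNA-miR-NC as the control and 2 at 1.5-fold. Members higher after LNA-miR-197 (2) were 4 at any size and 1 at 1.5-fold, with NC, under normexp or with the filter on all 12 arrays. Members with both directions (2) were 1 under quantile normalization, with the mean of a gene's probes or with the filter on all 12 arrays. That filter left BMF and IL6R out of the test, so fewer members could be counted under it. Apart from the 1.5-fold count after premiR-197, the share of all genes is not given for these counts under the alternatives, so they are not set against a background. Members called after premiR-197 (1) were 2 under the trend and robust prior, normexp and the filter on all 12 arrays, where TUSC2 passed too, and 0 with no replicate block, the slide block, the comparison's arrays alone, the adjusted t-test (1 unadjusted) or any 1 line left out. Members called after LNA-miR-197 (1) were 3 under the trend and robust prior, 4 with NC, and 0 without the filter, with no replicate block, the slide block, the comparison's arrays, the adjusted t-test (1 unadjusted) or any 1 line left out. Members called in the difference (0) were 3 under the trend and robust prior, 2 under normexp, 2 with the filter on all 12 arrays and 1 under quantile normalization.

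Genes called after premiR-197 (54) were 517 under the trend and robust prior, 532 under normexp, 462 with the filter on all 12 arrays, 737 with LNA-miR-NC, 82 under quantile normalization, 34 with the mean of probes, 3 without the filter, 426 by the t-test unadjusted, and 0 adjusted, with the comparison's arrays, the slide block, no replicate block or any 1 line left out. Those after LNA-miR-197 (1903) were 3230, 3150 and 3062 under the first 3 of these, 3680 with NC, 517 without the filter, 758 by the t-test unadjusted and 0 adjusted, 0 with the comparison's arrays, 4 with the slide block, 3 with no replicate block and 0 to 2 with a line left out. Those in the difference (27) were 637, 568 and 530 under the same 3, 41 under quantile normalization, 1 with the mean of probes, 1 without the filter, and 0 with the slide block, no replicate block or a line left out. Those in the control comparison (162) were 288 under the trend and robust prior, 92 without the filter, 44 with the slide block, 6 with no replicate block and 0 to 6 with a line left out. The block changed no other member's call.

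Values that turned sign, none of them called, were PMAIP1 after premiR-197 (-0.00039 under normexp, -0.040 to 0.12 with a line left out), TSPAN3 after premiR-197 (-0.22 to 0.045) and in the difference (-0.12 to 0.13), and CD82 in the difference (-0.27 to 0.22), each with a line left out, and TUSC2 after LNA-miR-197 with NC as the control (-0.26).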

Other observations

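Apart from IL22RA1 and NLK, the genes whose probe held GTGGTGAA and that were lower by at least 1.2-fold in all 3 lines after premiR-197 included ABCC3, an efflux transporter of organic anions, and PARP2, a DNA damage sensor that makes poly(ADP-ribose). ABCC3 had log2 ratios of -0.60, -0.99 and -2.44 in A549, PC14 and PC14CDDP. PARP2 had log2 ratios of -0.54, -0.98 and -1.19 in the same order. PPP1R13B, which encodes the p53-binding protein ASPP1, had log2 ratios of -0.29, -0.56 and -0.58. After LNA-miR-197 the means of ABCC3, PARP2 and PPP1R13B were -0.61, 0.49 and 0.02. None of these 3 passed the test after premiR-197 (limma adjusted p = 0.38, 0.10 and 0.12), and all 3 were named after their values were seen.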
